A study of Mus musculus with 16 samples.

Results

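Wnt ligands, their receptors and the proteins that tune them were followed in the pituitary of 16 female mice. The 46 genes were picked by symbol from the protein-coding genes of the pituitary table, which listed 17362 genes in all. They comprised 11 Wnt ligands, 10 Frizzled receptors, the 2 co-receptors Lrp5 and Lrp6, 6 secreted inhibitors, 7 R-spondins and Lgr receptors, 6 feedback inhibitors and 4 transcription factors of the TCF/LEF family. The annotation held 56 protein-coding genes with such a name, and 10 of them were not among the genes listed (Wnt1, Wnt3a, Wnt7a, Wnt8a, Wnt8b, Wnt9b, Wnt10b, Wnt11, Dkk1 and Dkk4). The rule used symbols and no measured value, but it was set with earlier results of these data known.

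Wnt proteins are lipid-modified secreted signals that bind Frizzled receptors together with the co-receptors Lrp5 or Lrp6. Receptor engagement stops a cytoplasmic complex built on Axin from destroying β-catenin, which then enters the nucleus and works with TCF/LEF proteins that otherwise repress their targets. Sfrp and Dkk proteins act outside the cell to restrain the signal, Znrf3 and Rnf43 remove receptors from the surface, and R-spondins acting through Lgr receptors counter that removal. In the pituitary the pathway is known from development, where TCF factors limit the growth of the gland, and from the adult, where stem cells secrete Wnts.

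Each mouse gave 1 library, and there were 4 mice in each of 4 groups, all 27 weeks old and on a mixed CD-1;129P2 background. Controls carried the floxed receptor gene without Cre (Esr1fl/fl), and mutants (Esr1Nkx2-1Cre) had lost Esr1, the gene for oestrogen receptor alpha, from cells with a history of Nkx2-1 expression. Each genotype was kept on the standard diet (SD, called chow in the labels) or given a high-fat diet (HFD) for 17 weeks. The control mice on SD were P356, P358, P359 and P383, the mutants on SD P357, P381, P382 and P384, the controls on HFD P385, P390, P391 and P392, and the mutants on HFD P339, P341, P387 and P388. Nkx2-1 is known from the hypothalamus and the posterior lobe, and the deletion is limited to cells in which this driver was once active. SD and HFD stand for the diets when they follow a group name, and SD beside a mean ± value stands for the standard deviation.

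Esr1 itself read between 29.0 and 46.6 in controls on SD and between 10.02 and 22.2 in mutants on SD, whereas the ranges overlapped on HFD (23.6 to 43.4 in controls and 21.5 to 33.4 in mutants). The deposited values summed to between 908897 and 1335782 per mouse, and no library duplicated another. Hormone genes that define the gland were abundant in every mouse, with Prl at 28.8% to 40.6% of each sum. A pair of libraries stood apart from the rest. Across 7 genes of the intermediate and posterior lobes (Pax7, Oacyl, Pcsk2, Nkx2-1, Rax, Col25a1 and Scn7a), the mean of log2(value + 0.5) was 0.90 in P357, a mutant on SD, and 1.48 in P392, a control on HFD, against 2.94 to 3.48 in the other mice. P357 also carried the largest sum of 13 mitochondrial genes (119409, against 32247 to 49368 in the others). Of the 30 members tested, 25 lay outside the range of the group mates in P357 and 25 in P392, against 9 to 18 in each of the other mice. Esr1 was 39.6 in P392, among the controls, and 10.02 in P357, the lowest of the mutants. Why these libraries stand apart was not tested. Several results of members that rest on either are also given without it, whereas those of markers and of other pathway genes are given with all mice.

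Values are on the authors' own normalised scale. The smallest values of single-transcript genes came in steps that shrank with transcript length, so levels are comparable between genes only as values per length of transcript. On this scale the members spanned a wide range, from 27.8 for Axin2 to 0.0862 for Wnt3 as means over 16 mice. Feedback inhibitors took 24.6% of the summed level of all members, Frizzled receptors 17.4%, secreted inhibitors 17.3%, co-receptors 15.5%, ligands 11.1%, R-spondins and Lgr receptors 7.25% and TCF/LEF factors 6.79%. Axin1 (16.85), a constitutive scaffold, was counted among the feedback inhibitors and adds to their share. Wnt10a (10.9) and Wnt9a (6.03) were the leading ligands, and Fzd7 (6.54) was followed by Fzd5 and Fzd4 (both 5.44) among 10 receptors. Lrp6 (25.9) exceeded Lrp5 (7.42) in every mouse. Dkk3 (20.0) and Sfrp5 (11.0) led the secreted inhibitors, Lgr4 (7.03) its class, and Tcf7l2 (7.90) and Tcf7l1 (5.06) the nuclear factors. The remaining ligands did not exceed a mean of 1.74. Neighbours in this order often could not be separated: the 16-mouse ranges of Fzd7 (5.23 to 8.38), Fzd5 (2.55 to 8.87) and Fzd4 (3.30 to 7.23) overlapped broadly.

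**Figure D1:**
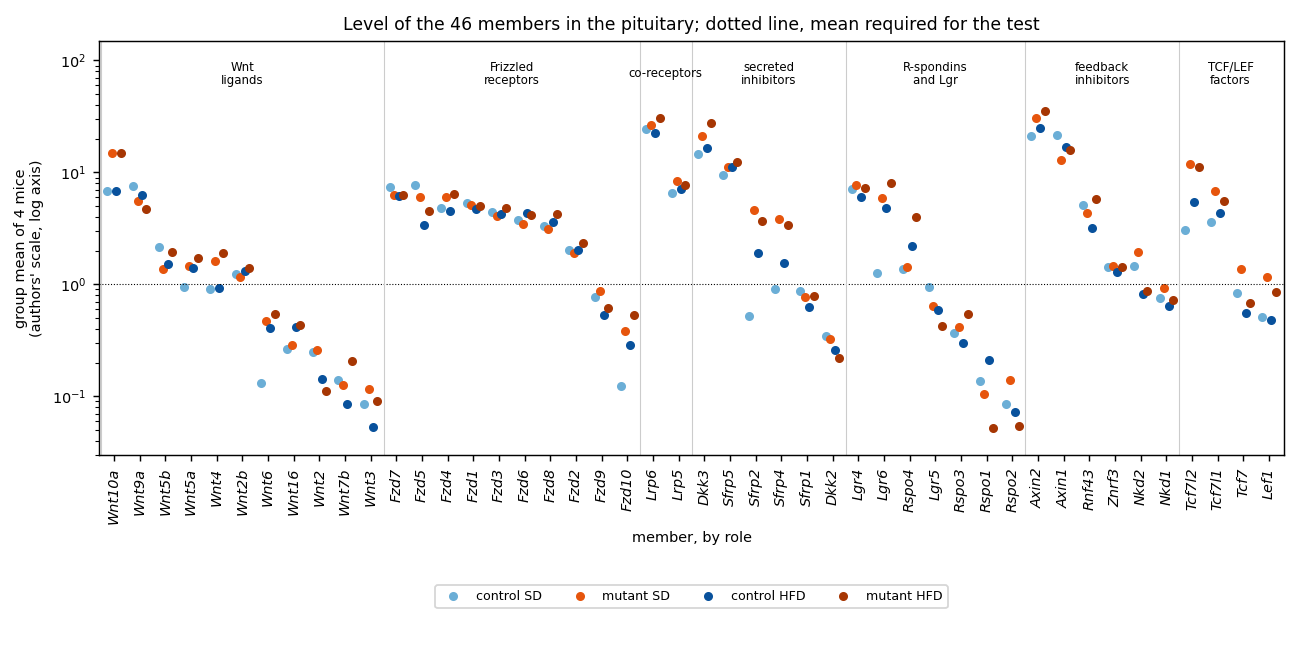
Mean of 4 mice in each group for the 46 members, ordered by role, on a log axis in the authors' normalised units (1 point per group). The dotted line marks the mean of 1 over 16 mice required for the test. Axin2, Lrp6 and Dkk3 lie at the top, and 16 members average under the line, Tcf7 being the highest of them at 0.860.

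Members were tested as log2(value + 0.5) with limma, fitted on all 16 mice and on 14345 genes whose mean reached 1, with Benjamini-Hochberg adjustment over all of them and a threshold of 0.05. Of the 46 members, 30 passed this filter and 16 did not. The added 0.5 shrinks differences of scarce transcripts. The labels give 1 mouse per library, so p-values measure the spread between mice.

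A subset of the pathway was higher in mutants than in controls. On SD, 3 of 30 tested members were called, all higher in mutants: Tcf7l2, the TCF/LEF factor with the highest level, Sfrp2, a secreted Wnt antagonist, and Tcf7l1, a TCF factor best known as a repressor. Over all genes tested, 1.84% were called in this comparison and 1.37% were called higher in mutants. When genotype was averaged over both diets, 7 of 30 were called, again all higher in mutants, against 6.54% of all genes (4.48% higher). In this average 14 of 30 had an unadjusted p under 0.05, with 12 higher and 2 lower, against 22.7% of all genes. The additional members were the ligands Wnt10a and Wnt4, the R-spondin receptor Lgr6 and the feedback gene Axin2. With 1 mouse left out, the count on SD was 5 without P356 or P392, 1 without P359, P383 or P382, and 2 or 3 otherwise. The 264 calls over all genes on SD moved as well, to 826 without P356 and 777 without P392. They fell to 38, 36 and 33 without P359, P383 and P382. The count in the average was 11 without P392, 9 without P357, 8 without P356, and 4 or 5 without any one of the other 13 mice. The count over all genes in the average also rose without P392, P357 or P356. On HFD alone 0 members were called, as were 0 of all genes tested with limma. Leaving out P392 gave 5 members and 653 of all 14345 genes, while leaving out any other mouse gave 0 members. At an unadjusted p under 0.05, 11 of 30 members differed on SD (9 higher and 2 lower, against 19.9% of all genes) and 11 on HFD (10 higher and 1 lower, against 10.2%). The median difference of the tested members was 0.13 on SD and 0.27 on HFD on the log2 scale, beside -0.01 and 0.02 for all genes tested. On SD the groups of 4 did not overlap for 6 of 30 members, all higher in mutants, against 10.6% of all genes (6.09% with mutants higher). On HFD this held for 4 of 30, again higher in mutants, against 5.30% (2.96% with mutants higher).

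**Figure D2:**
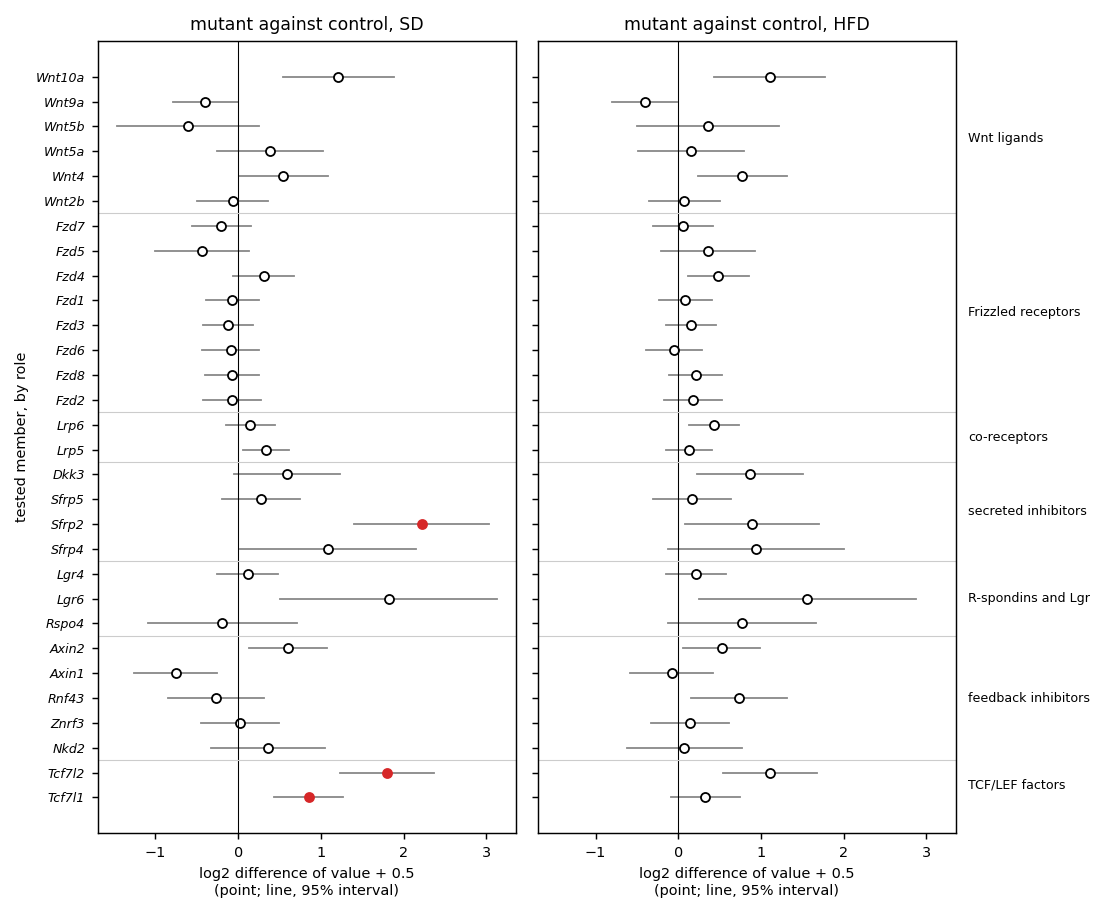
Difference between mutant and control mice in log2(value + 0.5) for the 30 tested members, on SD (left) and HFD (right), ordered by role, with 4 mice a group. Points are limma estimates with 95% intervals, and filled red points passed an adjusted p of 0.05. Only Sfrp2, Tcf7l2 and Tcf7l1 on SD are filled, at 2.22, 1.80 and 0.85.

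Several markers of vessels and immune cells were called higher in mutants in the average over diets, and 0 endothelial, pericyte or immune markers were called on SD or on HFD alone with limma. All 5 endothelial markers examined (Pecam1, Cdh5, Kdr, Plvap and Emcn) were present, and their summed value ran from 101 to 123 in controls on SD, 154 to 206 in mutants on SD, 94.3 to 183 in controls on HFD and 149 to 164 in mutants on HFD. The upper end in controls on HFD was P392, the others reaching at most 108. Of these 5, 3 were called higher in mutants in the average over diets. The sum of 3 pericyte markers (Pdgfrb, Rgs5 and Cspg4) ran from 25.3 to 42.9, 67.6 to 85.0, 28.9 to 133 and 73.5 to 120 in the same order of groups, with P392 at 133 and Rgs5 called in the average. The sum of 5 macrophage and immune markers ran from 28.0 to 38.8, 51.1 to 128, 26.3 to 83.9 and 49.97 to 115, with 2 of 5 called in the average. On HFD the control P392 (83.9) exceeded the mutants P339 (66.5), P387 (71.6) and P388 (49.97), and the control P391 (52.2) exceeded P388. Stem or folliculostellate markers summed to 53.7 to 73.1, 73.7 to 92.4, 62.6 to 78.7 and 60.9 to 86.7, with 0 of 3 tested called. Fibroblast markers (4 genes), melanotroph markers (3) and markers of the 5 hormone cell types of the anterior lobe (12) gave 0 calls. Of 4 posterior lobe markers, Col25a1 was called higher in mutants on SD (log2 difference 1.0) and in the average. Nkx2-1, Rax and Scn7a lay the other way on SD, at -0.64, -1.11 and -0.69, without a call. On HFD they lay higher in mutants, at 0.44, 0.38 and 0.70, again without a call. Col25a1 read 13.9 in P357 and 15.3 in P392, where Rax read 0. The part of these cell types in the members' differences was not tested. In bulk tissue, a change in the share of a cell type and a change in RNA per cell cannot be told apart.

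**Figure D3:**
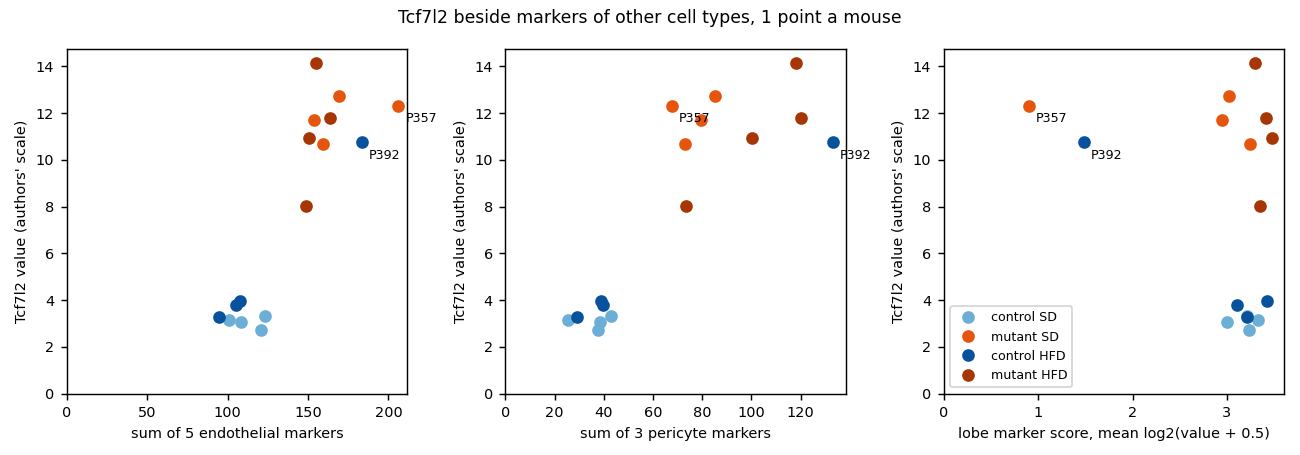
Tcf7l2 value of each mouse (vertical axis, authors' normalised units) against the summed endothelial markers, the summed pericyte markers and the lobe marker score (horizontal axes), coloured by group. The mutants and the control P392 lie at 149 or more on the endothelial sum, and the other 7 controls lie at 123 or less. P357 and P392 lie far to the left on the lobe score, one with each genotype.

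Of the TCF/LEF factors, Tcf7l2 (ENSMUSG00000024985) split by genotype on SD. This gene, also known as TCF4, lies on the plus strand of chr19:55741820-55933654 (GRCm38). Tcf7l2 read 3.06, 3.30, 2.70 and 3.16 in controls on SD (mean 3.06 ± 0.257, SD, n = 4). In mutants on SD it read 12.3, 10.7, 12.7 and 11.7 (11.9 ± 0.891, SD, n = 4). The lowest mutant was thus well above the highest control, and P357 sat among the other mutants. The log2 difference was 1.80 (standard error 0.27, 3.48-fold on this scale), with an adjusted p of 0.00825 from limma with Benjamini-Hochberg adjustment. On HFD it read 3.26, 3.80, 3.96 and 10.8 in controls and 11.8, 10.9, 14.2 and 8.04 in mutants. The overlap came from P392 alone, a control with a mutant-like level. The HFD difference was 1.11 (standard error 0.27, adjusted p = 0.205), and leaving out P392 took it to 1.47 with an adjusted p of 0.000135, both from limma. Averaged over diets, the difference was 1.45 (standard error 0.19, adjusted p = 0.00161 from limma). Tcf7l2 was called on SD without any one of the 16 mice, with an adjusted p from limma of at most 0.0402.

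Tcf7l1, also called TCF3, lies on the minus strand of chr6:72626378-72789254 and overlaps the antisense gene Gm15401, which the table does not list. Control mice on SD read 3.11, 3.0, 3.54 and 4.76, and mutants on SD 7.33, 6.65, 6.63 and 6.59. Again no mutant on SD overlapped a control, and 3 of the mutants lay close together. The difference was 0.85 (standard error 0.20, adjusted p = 0.0406 from limma). That call was close to the threshold, and it was lost without P358 (adjusted p = 0.118), P359 (0.107), P383 (0.0585), P357 (0.0665), P381 (0.0727), P382 (0.0984), P384 (0.0695), P341 (0.0572), P387 (0.0504) or P388 (0.0566), and with a covariate for the lobe score (0.113) or the animal-number range (0.0651), all from limma. On HFD, controls read 4.0, 4.06, 3.09 and 6.28 and mutants 4.21, 5.81, 6.68 and 5.29, where the overlap again came from P392. Averaged over diets, the difference was 0.59 (standard error 0.14, adjusted p = 0.0209 from limma), a call kept without any one mouse.

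The other TCF/LEF factors were below the filter. Lef1, which activates Wnt targets with β-catenin, read 0.447, 0.546, 0.527 and 0.520 in controls on SD and 0.971, 1.58, 0.842 and 1.24 in mutants on SD. The groups did not overlap (two-sided p = 0.0286 in an exact permutation test, which with 4 and 4 mice can give no lower value). Any groups of 4 and 4 without overlap give this p, so it adds nothing to the absence of overlap. On HFD, Lef1 was 0.477 ± 0.159 in controls and 0.862 ± 0.424 in mutants (SD, n = 4), with overlap. Tcf7, the T-cell factor TCF1, was 0.842 ± 0.404 in controls and 1.37 ± 1.14 in mutants on SD, and 0.556 ± 0.0784 and 0.675 ± 0.179 on HFD (SD, n = 4).

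**Figure D4:**
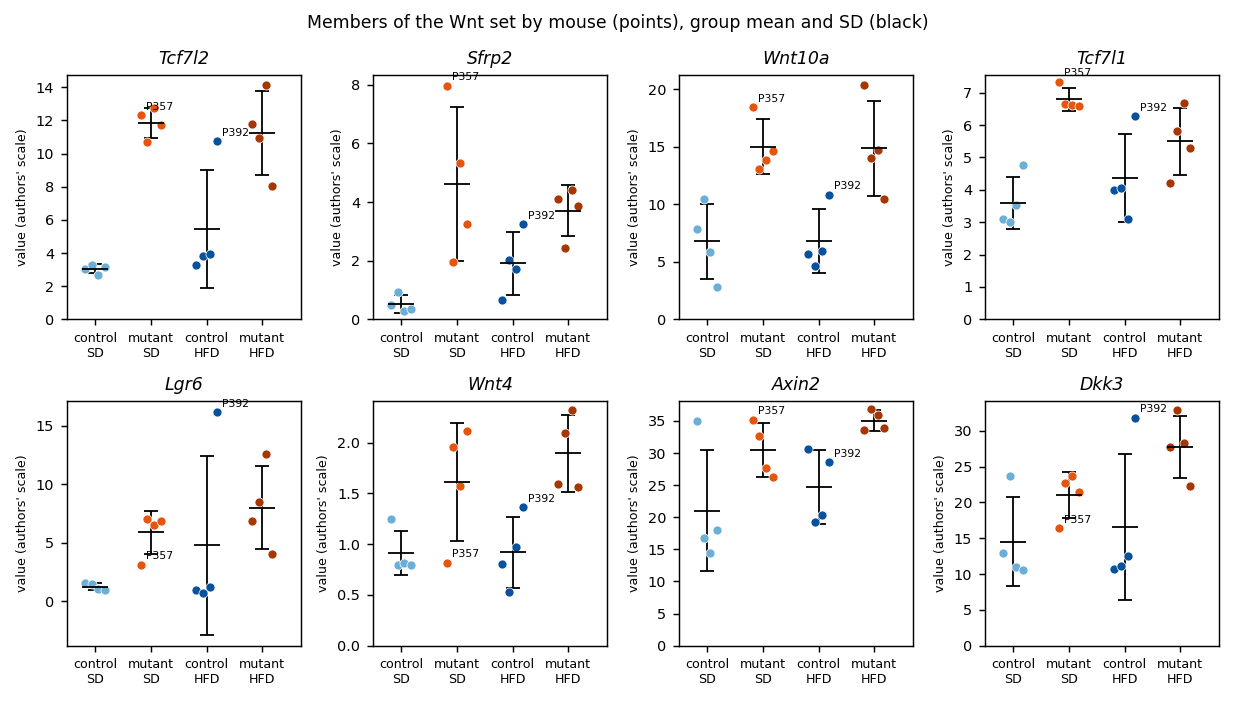
Values in each mouse (coloured points, authors' normalised units) with group mean and SD (black) for the 7 members called in the average over diets and for Dkk3, which had an adjusted p of 0.0532 there. Tcf7l2 sits between 2.70 and 3.96 in 7 of 8 controls and between 8.04 and 14.2 in the mutants, with the control P392 at 10.8.

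Promoter sequences are shown for the 3 members called on SD, since the genes moved in the same direction and a reader may want to see what their start sites hold. They run from 250 bases before to 50 bases after an annotated start and come from RefSeq (GRCm38.p6), which matched 29 of the 46 members with 37 promoters. Capitals mark, on either strand, the GC box GGGCGG, the CCAAT box CCAAT and the TATA box TATAAA, and copies of the GC box may overlap each other. CTTTGA, a form of the core of the TCF/LEF site, and AGGTCA, an arm of the oestrogen response element, were searched in the same way. The full palindromic element was searched as well.
Tcf7l2, first start (chr19:55741560-55741859, plus strand): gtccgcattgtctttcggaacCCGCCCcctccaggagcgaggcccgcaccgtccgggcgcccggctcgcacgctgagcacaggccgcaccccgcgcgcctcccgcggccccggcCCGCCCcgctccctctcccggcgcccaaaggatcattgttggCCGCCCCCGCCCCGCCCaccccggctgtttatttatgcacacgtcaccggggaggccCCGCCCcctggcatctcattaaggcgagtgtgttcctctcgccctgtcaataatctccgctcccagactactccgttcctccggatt
Tcf7l2, internal start (chr19:55895071-55895370, plus strand): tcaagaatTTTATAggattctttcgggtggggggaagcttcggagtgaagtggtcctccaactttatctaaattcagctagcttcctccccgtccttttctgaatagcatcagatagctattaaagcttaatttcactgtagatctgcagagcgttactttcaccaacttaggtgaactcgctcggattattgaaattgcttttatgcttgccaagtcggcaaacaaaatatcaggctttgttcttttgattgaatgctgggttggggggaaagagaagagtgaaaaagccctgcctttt
Sfrp2 (chr3:83766071-83766370, plus strand): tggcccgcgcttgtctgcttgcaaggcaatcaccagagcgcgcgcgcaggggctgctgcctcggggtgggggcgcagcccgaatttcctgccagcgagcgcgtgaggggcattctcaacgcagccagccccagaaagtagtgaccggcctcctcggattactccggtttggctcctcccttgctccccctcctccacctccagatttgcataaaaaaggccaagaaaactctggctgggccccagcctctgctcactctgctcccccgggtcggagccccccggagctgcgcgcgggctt
Tcf7l1 (chr6:72788996-72789295, minus strand): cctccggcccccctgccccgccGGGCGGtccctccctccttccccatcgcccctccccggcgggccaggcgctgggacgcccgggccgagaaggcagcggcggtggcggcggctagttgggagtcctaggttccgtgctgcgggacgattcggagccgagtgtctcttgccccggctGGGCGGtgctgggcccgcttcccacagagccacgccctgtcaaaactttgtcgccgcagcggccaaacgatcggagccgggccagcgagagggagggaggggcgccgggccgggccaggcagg

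The first Tcf7l2 promoter held 6 GC boxes and the Tcf7l1 promoter 2, while the Sfrp2 promoter held 0 of the motifs searched and the internal Tcf7l2 start held 1 TATAAA. Across 32851 promoters of this length, 35.7% held at least 1 GC box, 37.4% a CCAAT box and 13.6% a TATA box. The G and C content was 70% at the first Tcf7l2 start, 42.0% at the internal one, 66.0% for Sfrp2 and 75.3% for Tcf7l1. Neither CTTTGA (in 16% of all promoters) nor AGGTCA (in 16.3%) was present in any of the 4 sequences. Forms of the TCF/LEF core other than CTTTGA, such as CTTTGT, were not searched, so their absence is not claimed. Among all 37 member promoters, CTTTGA occurred in 3 (Fzd1, Wnt5b and 1 Lef1 start), AGGTCA in 2 (Tcf7 and Wnt16) and the full oestrogen response element in 0, against 0.07% of all promoters. These matches describe letters in a short window and not binding.

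Of the Wnt ligands, Wnt10a and Wnt4 were higher in mutants in the average over diets, and Wnt9a was the only ligand to lean the other way on both diets. Wnt10a, a canonical ligand known for tooth and hair development, lies on the plus strand of chr1:74791516-74804179. Control mice on SD read 7.87, 10.5, 5.87 and 2.83, and mutants on SD 18.4, 13.1, 13.8 and 14.7. Every mutant exceeded every control, although the controls varied more than 3-fold among themselves. The SD difference was 1.21 (standard error 0.32, adjusted p = 0.0594 from limma) and was called without P356 (0.0387) or P392 (0.0242) and with the animal-number range as a covariate (0.0254). The controls on HFD read 5.67, 4.68, 5.97 and 10.8 and mutants 20.4, 14, 14.7 and 10.4, so that the highest control (P392) passed the lowest mutant. The HFD difference was 1.11 (standard error 0.32) with an adjusted p of 0.256 in limma (0.0236 without P392), and the average over diets was 1.16 (standard error 0.22, adjusted p = 0.00855), called without any one mouse.

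Wnt4, which guides female reproductive tract development and pituitary cell growth, lies on the plus strand of chr4:137277489-137299726. Its transcript shares stretches of at least 100 bases at 90% identity with at least 431 other genes, as the search kept a limited number of matches. How the authors' counting shared such reads is not stated. Levels were low, at an estimated 32.8 to 195 reads per mouse. Controls on SD read 1.24, 0.794, 0.813 and 0.797, and mutants on SD 0.816, 1.96, 1.57 and 2.11. The overlap on SD came from P357, the lowest mutant, and P356, the highest control. Under HFD the controls read 0.808, 0.532, 0.973 and 1.36 and mutants 1.59, 2.10, 2.32 and 1.56, with no overlap. The difference was 0.55 on SD (standard error 0.25, adjusted p = 0.245), 0.77 on HFD (0.25, 0.302) and 0.66 in the average over diets (0.18, 0.0402), all from limma. The last call was kept without P356, P357 or P392 and was lost without any one of the other 13 mice, where the adjusted p lay between 0.0508 and 0.0941.

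Wnt9a read 5.33, 7.27, 9.43 and 8.24 in controls and 5.33, 6.18, 5.54 and 5.09 in mutants on SD, and 6.2, 6.11, 7.71 and 5.26 in controls and 3.54, 4.07, 5.53 and 5.62 in mutants on HFD. The groups overlapped on both diets. Wnt9a was 7.57 ± 1.74 in controls and 5.53 ± 0.469 in mutants on SD, and 6.32 ± 1.02 and 4.69 ± 1.04 on HFD (SD, n = 4). Its difference was -0.40 on SD (adjusted p = 0.245) and -0.41 on HFD (0.470), and in the average over diets -0.40 (standard error 0.13, adjusted p = 0.0765, all from limma), or 0.0242 without P356 and 0.0406 without P392. Among the non-canonical ligands, Wnt5a was 0.940 ± 0.232 in controls and 1.44 ± 0.661 in mutants on SD, and 1.41 ± 0.395 and 1.72 ± 0.929 on HFD (SD, n = 4). Wnt5b was 2.15 ± 0.700 and 1.36 ± 0.834 on SD and 1.52 ± 0.842 and 1.93 ± 0.583 on HFD, and its lowest values were those of P357 (0.301) and P392 (0.361), the libraries poor in lobe markers. Wnt2b, the last tested ligand, had group means from 1.16 to 1.41. Wnt6, Wnt16, Wnt2, Wnt7b and Wnt3 averaged between 0.0862 and 0.389, and 4 of these 5 were listed at 0 in 1 mouse each. For Wnt3 an estimated 3 reads or fewer stood behind the value in 8 of 16 mice, so that a difference was not detectable at this depth.

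Of the Frizzled receptors, which bind Wnts at the surface, 0 of 8 tested were called in any comparison with limma. At an unadjusted p under 0.05 there were 0 on SD, 1 on HFD and 1 in the average over diets. Fzd4, the receptor that also serves norrin in blood vessels, came nearest in the average over diets. Controls on SD read 4.29, 5.04, 4.81 and 4.90, and mutants on SD 4.94, 7.23, 5.77 and 6.25, with only P357 inside the control range. The HFD controls read 3.30, 4.04, 4.24 and 6.62 and mutants 6.04, 5.84, 6.79 and 6.92, with only P392 among the mutants. The difference was 0.31 on SD (standard error 0.17, adjusted p = 0.334 from limma) and 0.49 on HFD (0.17, 0.342, and 0.0179 without P392). The average over diets was 0.40 (standard error 0.12, adjusted p = 0.0658), called without P357 (0.0376) or without P392 (0.00485).

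Fzd5 differed by more on SD, in the opposite direction to HFD, at -0.44 and 0.36 (adjusted p = 0.367 and 0.697 from limma). Without P357 and P392 these were -0.11 and 0.26 (0.744 and 0.418), and the values of Fzd5 are given with diet. Fzd7 was 7.42 ± 1.41 in controls and 6.31 ± 0.789 in mutants on SD, and 6.12 ± 1.41 and 6.32 ± 0.628 on HFD (SD, n = 4). For Fzd1, Fzd2, Fzd3, Fzd6, Fzd7 and Fzd8 the genotype difference on either diet lay between -0.20 and 0.21 on the log2 scale. Fzd10, below the filter, read 0.202, 0.0530, 0.103 and 0.138 in controls on SD and 0.206, 0.598, 0.265 and 0.450 in mutants on SD, which did not overlap by a narrow margin (exact permutation test, two-sided p = 0.0286). Those values rested on an estimated 2.9 to 10.7 reads in controls and 9.7 to 29.4 in mutants. Fzd9, the other receptor below the filter, had group means from 0.527 to 0.872.

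Both co-receptors leaned towards mutants without a call. Lrp5 read 6.18, 6.39, 6.13 and 7.24 in controls on SD and 7.52, 8.64, 8.61 and 8.56 in mutants on SD, with no overlap. Its difference was 0.34 on SD (standard error 0.13, adjusted p = 0.171) and 0.13 on HFD (0.13, 0.803), where P392 (9.27) was the highest of all 16 mice. The average over diets was 0.23 (standard error 0.09, adjusted p = 0.147, and 0.0225 without P392), all from limma. Lrp6 showed no overlap on HFD instead: controls read 23.6, 21.3, 19.1 and 25.5 and mutants 36.0, 31.6, 28.2 and 25.6, with P392 and P388 almost level. Lrp6 differed by 0.43 on HFD (standard error 0.14, adjusted p = 0.307 from limma) and by 0.15 on SD (0.14, 0.585), where means were 24.3 ± 4.78 and 26.6 ± 1.28 (SD, n = 4). Repeats in the transcripts of both genes are shared with other genes, at least 270 for Lrp5 and at least 428 for Lrp6.

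Among secreted inhibitors, Sfrp2 was the member called on SD. This decoy protein, which binds Wnts through a Frizzled-like domain, lies on the plus strand of chr3:83766321-83774316 and overlaps Gm26771, an antisense gene that the table does not list. Controls on SD read 0.497, 0.950, 0.286 and 0.357, and mutants on SD 7.96, 1.97, 5.33 and 3.24. No values overlapped, and the mutants spanned a 4-fold range with P357 at the top. The difference was 2.22 (standard error 0.38, 4.65-fold on this scale, adjusted p = 0.0142 from limma). Leaving out P359, P383 or P382 took the adjusted p to 0.0573, 0.0521 and 0.0530, and without both P357 and P392 the difference was 1.93 (0.00554). On HFD, controls read 0.666, 2.02, 1.71 and 3.25 and mutants 4.10, 2.43, 4.41 and 3.86, with P392 inside the mutant range. The HFD difference was 0.89 (standard error 0.38, adjusted p = 0.449 from limma). It was 0.58 without P385 (adjusted p = 0.641) and 1.14 without P357 and P392 (0.0604), both from limma. The average over diets was 1.56 (standard error 0.27, adjusted p = 0.00519 from limma), a call kept without any one mouse. The interaction estimate was -1.32 (standard error 0.54, unadjusted p = 0.0267, adjusted p = 0.924 from limma), so the smaller difference on HFD was not a called one.

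Dkk3, an atypical Dickkopf protein, was the most abundant of the class. Controls on SD read 12.9, 23.7, 11.0 and 10.5, and mutants on SD 16.4, 22.8, 23.7 and 21.4. P358 alone among these controls reached the mutant range. Among mice on HFD, controls read 10.8, 11.2, 12.5 and 31.8 and mutants 27.7, 32.9, 28.3 and 22.3, where P392 alone did so. The HFD difference was 0.87 (standard error 0.30, adjusted p = 0.334) and 1.23 without P392 (0.00589). The average over diets was 0.73 (standard error 0.21, adjusted p = 0.0532), and it was called without P358 (0.0281), P357 (0.0434) or P392 (0.00133), all from limma.

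Sfrp4, a relative of Sfrp2 known for its part in cortical bone, read 0.857, 0.693, 1.05 and 1.05 in controls on SD and 0.833, 11.0, 1.91 and 1.64 in mutants on SD. The value of 11.0 belonged to P381, and P357 fell within the controls. On HFD, Sfrp4 was 1.57 ± 0.812 in controls and 3.42 ± 1.20 in mutants (SD, n = 4). Its differences were 1.09 on SD (standard error 0.50, adjusted p = 0.244), 0.94 on HFD (0.50, 0.554) and 1.01 on average (0.36, 0.102, and 0.0397 without P357), all from limma. Without P381 the SD difference was 0.43 (adjusted p = 0.481) and the average 0.69 (0.0978). Sfrp5 was 9.42 ± 3.39 in controls and 11.2 ± 1.78 in mutants on SD, and 11.1 ± 2.75 and 12.3 ± 1.96 on HFD (SD, n = 4). Sfrp1 and Dkk2 were below the filter, with means of 0.764 and 0.287.

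Lgr6, a receptor for R-spondins, gave the widest split within the R-spondin and Lgr class and also the widest exception. The gene lies on the minus strand of chr1:134983301-135105276. Controls on SD read 1.56, 1.5, 1.04 and 0.968, and mutants on SD 3.15, 7.05, 6.57 and 6.89. All mutants exceeded all controls, with P357 the lowest of them. On HFD, controls read 0.972, 0.744, 1.21 and 16.2 and mutants 6.89, 8.52, 12.6 and 4.06. P392 held the highest Lgr6 level of all 16 mice, and the other 3 controls on HFD stayed under every mutant. The difference was 1.82 on SD (standard error 0.62, adjusted p = 0.126) and 1.56 on HFD (0.62, 0.402), which became 2.44 with an adjusted p of 0.000524 without P392. On SD the call was likewise made without P392 (0.00299) and when the 8 mice on SD were fitted alone (0.0114). The average over diets was 1.69 (standard error 0.44, adjusted p = 0.0322), with values from 1.9e-05 without P392 to 0.0768 without P390. Leaving out any of P358, P359, P383, P381, P382, P384, P385, P390, P391, P339, P341 or P387 lost that last call.

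The other members of the class did not separate by genotype on SD. Lgr4, the most abundant of the R-spondin receptors, was 7.13 ± 1.35 in controls and 7.74 ± 1.25 in mutants on SD, and 6.09 ± 0.908 and 7.18 ± 1.25 on HFD (SD, n = 4). Rspo4, a ligand known for nail growth, read 1.33, 1.05, 1.18 and 1.91 in controls on SD and 0, 2.13, 2.21 and 1.40 in mutants on SD. The 0 belonged to P357, and 3 reads would have given at most 0.097. On HFD, Rspo4 read 1.94, 2.40, 3.10 and 1.29 in controls and 5.52, 3.68, 3.26 and 3.62 in mutants, with no overlap. Its HFD difference was 0.77 (standard error 0.42, adjusted p = 0.563 from limma). Lgr5, Rspo3, Rspo1 and Rspo2 were below the filter with means of 0.652, 0.406, 0.126 and 0.0879, and Rspo1 and Rspo2 were listed at 0 in 3 and 4 mice.

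Among feedback inhibitors, Axin2 was the one called. Axin2 is a scaffold of the β-catenin destruction complex and a widely used read-out of canonical Wnt signalling, on the plus strand of chr11:108920349-108950783. Controls on SD read 35.0, 16.7, 14.4 and 17.9, and mutants on SD 35.2, 32.7, 27.7 and 26.3. P356 alone among those controls reached the mutants. On HFD, controls read 30.7, 19.2, 20.3 and 28.6 and mutants 33.5, 36.9, 35.9 and 33.9, with no overlap. The difference was 0.61 on SD (standard error 0.22, adjusted p = 0.15), 0.53 on HFD (0.22, 0.438) and 0.57 on average (0.16, 0.0431), all from limma. Without P356 the SD difference was 0.88 (adjusted p = 0.0103). The average was called without P356, P385 or P392 and missed the threshold without any one of the other 13 mice (0.0529 to 0.1). It was also missed with median scaling (0.0501) and without trend in eBayes (0.0516).

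Axin1, the constitutive scaffold, lay the other way on SD, at 24.7, 17.9, 16.1 and 27.3 in controls and 6.37, 14.8, 13.9 and 16.9 in mutants. The lowest value was that of P357, and the groups overlapped. The difference was -0.76 on SD (standard error 0.24, adjusted p = 0.102) and -0.08 on HFD (0.24, 0.954), and without P357 the SD difference was -0.46 (0.139), all from limma. With the animal-number range as a covariate Axin1 was called lower on SD (adjusted p = 0.0264). Rnf43, a ubiquitin ligase that clears Frizzled receptors, was 5.13 ± 0.367 in controls and 4.36 ± 1.68 in mutants on SD, and 3.2 ± 1.15 and 5.77 ± 2.24 on HFD (SD, n = 4). The mice on HFD read 4.87, 2.41, 3.01 and 2.5 in controls and 3.28, 8.67, 6.01 and 5.12 in mutants, with 1 mouse of each genotype in the range of the other. Its HFD difference was 0.74 (standard error 0.27, adjusted p = 0.364 from limma). Znrf3, its relative, lay between 1.29 and 1.45 in all 4 group means. Nkd2, which binds Dishevelled, is described with diet, and Nkd1 was below the filter with a mean of 0.760.

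**Figure D5:**
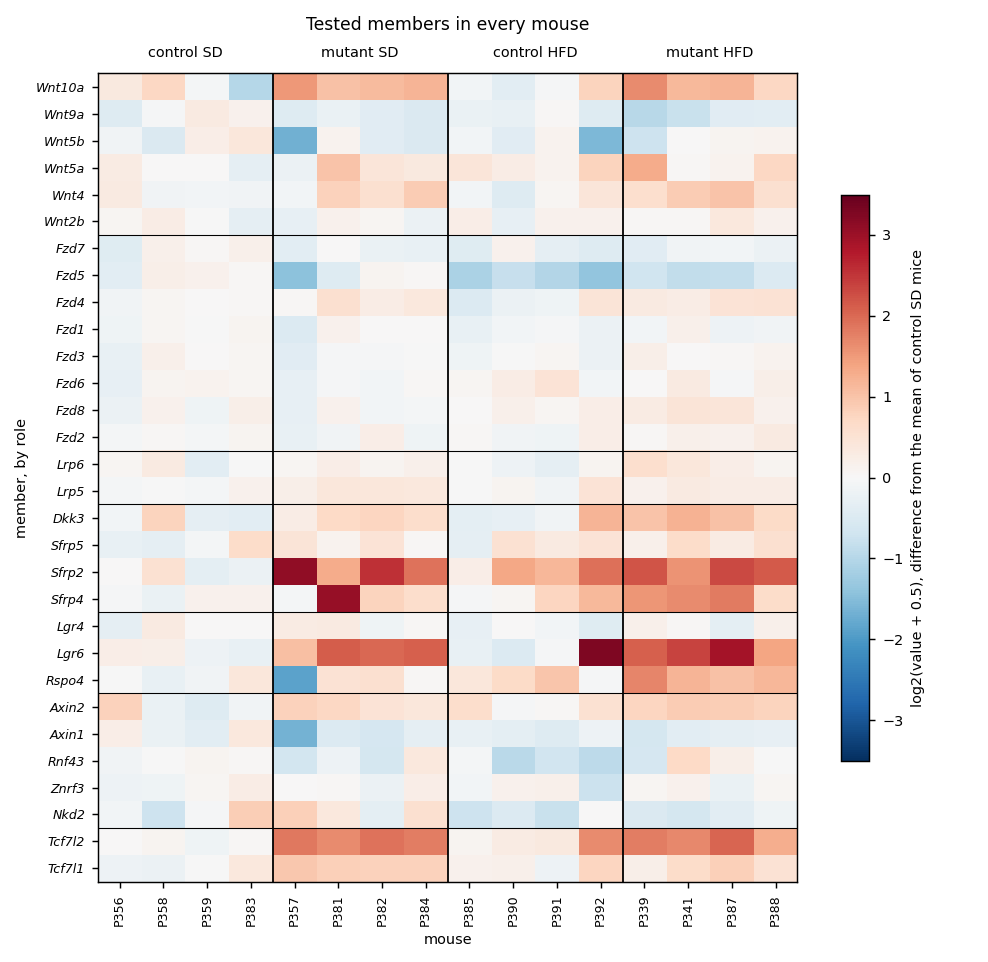
Each tested member (rows, by role) in each mouse (columns, by group) as log2(value + 0.5) minus the mean of the 4 controls on SD, red for higher and blue for lower. Tcf7l2, Lgr6 and Sfrp2 are red across the mutants and in the control P392. Sfrp2 also lies higher in the controls P390 (2.02) and P391 (1.71) than in any control on SD (at most 0.950). Fzd5 is blue in P357 and in all mice on HFD.

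Diet changed no member past the threshold. In mutants, 0 of 30 members and 0 of all genes were called between HFD and SD with limma, and 3 of 30 members had an unadjusted p under 0.05, against 5.0% of all genes. Rspo4 was the first of these, higher on HFD by 1.46 (standard error 0.42, unadjusted p = 0.00324, adjusted p = 0.813), with every mutant on HFD above every mutant on SD. Without P357, which was listed at 0, the Rspo4 difference was 0.90. Fzd8 was higher on HFD by 0.41 (standard error 0.15, unadjusted p = 0.0155), at 3.10 ± 0.442 on SD and 4.27 ± 0.446 on HFD (SD, n = 4). Nkd2 was lower on HFD by -0.77 (standard error 0.33, unadjusted p = 0.0313), at 1.93 ± 0.759 and 0.875 ± 0.198. It read 2.76, 1.86, 0.936 and 2.16 in mutants on SD and 0.787, 0.677, 0.896 and 1.14 in mutants on HFD, with P388 above P382.

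In controls, 0 of 30 were called and 4 had an unadjusted p under 0.05, against 4.13% of all genes. Fzd5 was lower on HFD, reading 5.86, 8.87, 8.56 and 7.87 on SD and 3.34, 4.14, 3.55 and 2.65 on HFD. These groups did not overlap, and the mutants on HFD (4.54, 4.04, 4.13 and 5.37) also lay under every control on SD. In mutants on SD, Fzd5 read 2.55, 5.49, 8.21 and 7.90, with the lowest value in P357. Without P357 and P392, Fzd5 was lower on HFD in mutants as well, by -0.61 (unadjusted p = 0.00385 from limma), and was not called. The diet difference in controls was -1.08 (standard error 0.27, unadjusted p = 0.000985, adjusted p = 0.644 from limma). The others were Sfrp2 (1.16, unadjusted p = 0.00812), Rnf43 (-0.65, unadjusted p = 0.0310) and Tcf7l2 (0.59, unadjusted p = 0.0424, and 0.23 without P392). For genotype by diet, 0 of 30 were called, and 2 of 30 had an unadjusted p under 0.05, against 4.20% of all genes. These were Sfrp2, given above, and Rnf43 (1.01, standard error 0.39, unadjusted p = 0.02, adjusted p = 0.924 from limma). The estimate was above 0 for 8 of 8 tested Frizzled receptors (median 0.26), beside 53.2% of all genes (median 0.02), and 0 of the 8 had an unadjusted p under 0.05. Without P357 and P392 it was above 0 for 7 of 8, with Fzd6 at -0.12 and Fzd1 at 0.0014. Comparisons of diet and of genotype share mice, so they are not independent of one another.

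From a list of 64 genes outside the members, 57 were listed and 51 tested, and 0 were called in mutants against controls on SD or on HFD with limma. In the average over diets, 2 of 51 were called, both higher in mutants, against 6.54% of all genes (4.48% higher), and the median difference of the 51 was 0.01, beside 0.00 for all genes tested and 0.23 for the 30 members. Cthrc1, a secreted glycoprotein that favours planar polarity signalling, read 1.94, 3.45, 2.17 and 1.20 in controls on SD and 5.75, 5.86, 7.93 and 7.41 in mutants on SD. On HFD it read 1.75, 1.52, 1.22 and 12.7 in controls and 7.91, 12, 10.5 and 5.35 in mutants, with P392 again the exception. Its average difference was 1.49 (standard error 0.35, adjusted p = 0.0206 from limma). Bcl9, a co-factor of nuclear β-catenin, read 63.6, 44.3, 43.5 and 44.6 in controls and 87.5, 73.9, 85.7 and 57.02 in mutants on SD, and 58.05, 45.1, 49.4 and 70 in controls and 78.8, 70.4, 64.9 and 69.8 in mutants on HFD. Both diets showed an overlap, and Bcl9 differed by 0.50 on average (standard error 0.11, adjusted p = 0.0194 from limma). At an unadjusted p under 0.05 there were 10 of 51 on SD (4 higher, against 19.9% of all genes), 5 on HFD (4 higher, against 10.2%) and 11 in the average (6 higher, against 22.7%), which is near the background. Of 17 tested cytoplasmic components, of 13 planar polarity genes and of 5 common targets, 0 were called in the 6 comparisons. The summed value of the targets (Ccnd1, Myc, Tnfrsf19, Sox9, Cd44 and the untested Ccn4) ran from 42.7 to 83.6 in controls on SD, 78.9 to 97.9 in mutants on SD, 45.8 to 97.5 in controls on HFD and 91.5 to 105 in mutants on HFD. Myc was the widest of them on SD, at 37.9, 9.61, 10.1 and 20.5 in controls and 46.2, 31.5, 34.8 and 44.2 in mutants (1.19, standard error 0.42, adjusted p = 0.135 from limma). As for Axin2, P356 was the control that reached the mutants.

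The genes whose pattern over the 16 mice was closest to that of Tcf7l2, by Pearson correlation of log2(value + 0.5) among the tested genes, were Vwc2 (0.98), Gsto2 (0.97), Gm8734 (0.97), Papss2 (0.97) and Prss28 (0.97). Each was low in 7 of 8 controls, P392 being the exception, and high in the mutants. Vwc2, a secreted regulator of bone morphogenetic proteins, averaged 0.0687 in controls and 4.39 in mutants on SD, and 0.988 and 3.29 on HFD. Papss2, which makes the sulphate donor of the cell, averaged 1.28 and 11.2 on SD and 3.93 and 10.6 on HFD. Of the members, Lgr6 (0.91), Sfrp2 (0.89), Tcf7l1 (0.86) and Wnt10a (0.85) followed Tcf7l2 most closely. The mice fall into separate groups, so these coefficients describe in part the split between groups, and they carry no test. For deviations from the group means they were 0.89 for Vwc2, 0.92 for Gsto2, 0.855 for Gm8734, 0.85 for Papss2 and 0.94 for Prss28. Among the members they were 0.91 for Lgr6, 0.57 for Sfrp2, 0.61 for Tcf7l1 and 0.55 for Wnt10a. P392, far from the other controls on HFD, enters these deviations.

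With P357 and P392 both left out, more members were called by limma. On SD there were 6 (Tcf7l2, Lgr6, Sfrp2, Tcf7l1, Lrp5 and Wnt4) and on HFD 6 (Tcf7l2, Lgr6, Dkk3, Fzd4, Wnt4 and Wnt10a), all higher in mutants. In the average over diets there were 13, of which 12 were higher and Wnt9a was lower. The same step raised the calls over all genes to 961, 1064 and 2668. Without them, Tcf7l2 differed by 1.78 on SD and 1.47 on HFD (adjusted p = 3.73e-05 and 0.000192), and Lgr6 by 2.07 and 2.44 (0.000851 and 0.000265). With the lobe score as a covariate instead, Tcf7l2 (1.57, adjusted p = 0.0177) and Sfrp2 (1.84, 0.0242) were called on SD and Tcf7l2 (1.31, 0.0252) on HFD. All these values are from limma. The lobe genes include Col25a1, which was itself higher in mutants on SD, by 1.0 (adjusted p = 0.0321).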

How the data were processed

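Pituitary RNA from 16 female mice was sequenced, 1 library a mouse, and mice were grouped by the genotype and diet labels. Per the labels and methods, library preparation by the authors used NEBNext Ultra II RNA reagents and sequencing a NovaSeq, after which Kallisto gave gene values on mm10 transcripts and Sleuth the tests. Versions, annotation release and strand use are not given in the sources used here. The deposited values are a normalised expression signal per gene, which is not whole counts and whose scale the sources do not define. Among 1457 single-transcript genes, 80.2% to 92.9% of low values were whole multiples of the value of 1 read (within 0.15 of a read), and 3 reads were worth 0.141 to 0.213 units per kilobase. Read estimates cover counting error only, and total depth is not known.

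Symbols and coordinates came from GENCODE M21 (GRCm38). Genes with a mean of at least 1 were put on the log2(value + 0.5) scale and modelled by limma 3.58.1 under R 4.3.3 (1 mean per group, all 16 mice, eBayes with trend, Benjamini-Hochberg adjustment within each of 6 comparisons). Exact permutation tests and summaries used Python 3.11.15, scipy 1.17.1, numpy 2.4.6 and pandas 2.3.3, and figures matplotlib 3.10.9. BLAST 2.17.0 found stretches shared between transcripts, with a limited number of matches kept per transcript, so counts of such genes are lower bounds. Alternatives were other filters (a mean of 0.1, of 5, or none), other pseudocounts (0.1 and 1), scaling by the median, quantile normalisation, no trend, only the mice compared, the animal-number range or the lobe score as a covariate, a threshold of 0.01, no P357 and P392, and each mouse left out.

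The members, the pathway list and the markers were chosen with earlier results of these data known. Group values, by mouse or as mean ± SD, were given for members with an unadjusted p under 0.05 in a comparison or with groups that did not overlap on SD or HFD, and for the 2 highest of each role, as well as for called genes of the pathway list, and named were the 5 genes nearest to the member of lowest p on SD. Other genes and markers were described after their values were seen.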

Additional observations from a re-analysis of the deposited data

Results flagged for a closer look

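In 120 groups of 4 mice (30 tested members in 4 groups), 12 held 1 mouse set apart from the other 3 by Dixon's criterion at 95%, where about 6.0 would be flagged by chance. P357, a mutant on SD, was the mouse in 4 of them: Tcf7l1 was highest there at 7.33 (6.59 to 6.65 in the other mutants on SD), and Lrp5 at 7.52 (8.56 to 8.64), Fzd3 at 3.25 (4.26 to 4.38) and Lgr6 at 3.15 (6.57 to 7.05) were lowest. P392, a control on HFD, was the mouse in 3, with Lgr6 at 16.2 (0.744 to 1.21 in the other controls on HFD), Dkk3 at 31.8 (10.8 to 12.5) and Tcf7l2 at 10.8 (3.26 to 3.96). These same libraries had the lowest lobe scores, and the part of that in the flags was not tested.

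The other 5 flags were spread over 4 mice. P356, a control on SD, read 1.24 for Wnt4 (0.794 to 0.813 in the other controls on SD) and 2.97 for Fzd6 (3.94 to 4.13). P381, a mutant on SD, read 11.0 for Sfrp4 (0.833 to 1.91). P390, a control on HFD, read 0.917 for Wnt2b (1.42 to 1.52). P339, a mutant on HFD, read 1.06 for Wnt5b (2.12 to 2.31).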

How the results depend on the processing

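The 45 differences of members with an unadjusted p under 0.05 were followed under every alternative, and 0 changed sign. Differences chosen by a low p seldom change sign, so this count was nearly set by the choice. Among all 180 differences of the 30 tested members (6 comparisons each), 27 changed sign without P357 and P392, of which 0 were called with or without these mice. On SD or HFD these were Fzd1, Rspo4 and Wnt2b on SD, and Fzd7, Wnt5b and Znrf3 on HFD. The count of members called on SD (3) was 1 with a filter at a mean of 5, 6 without P357 and P392, 1 at a threshold of 0.01 and 1 to 5 with 1 mouse left out. On HFD (0) it was 1 with the lobe score as a covariate, 6 without P357 and P392, and 0 to 5 with 1 mouse left out. In the average over diets (7) it was 4, 13 and 3 under the same changes as on SD, and 4 to 11 with 1 mouse left out. For diet and for the interaction, 0 members were called under every alternative run. Over all genes, the 264 calls on SD became 151 with a filter at a mean of 5, 35 with the lobe score, 961 without P357 and P392, 20 at a threshold of 0.01 and 33 to 826 with 1 mouse left out. The 0 calls on HFD became 1 with a filter at 0.1, 1 with no filter, 1 without trend, 154 with the lobe score, 1064 without P357 and P392, and 0 to 653 with 1 mouse left out, the 653 without P392. The 938 calls of the average became 610, 2668 and 186 with the filter at 5, without both mice and at 0.01, and 441 to 1931 with 1 mouse left out. For diet, all-gene calls of 0 became 1 in controls without both mice and 2 in mutants with only the mice compared, and 0 to 6 and 0 to 1 with 1 mouse left out. For the interaction, 0 to 1 were called with 1 mouse left out. The highest all-gene counts came without P356 on SD (777 without P392), without P392 in the average (1412 without P356 and 1268 without P357), and without P383 for diet in controls. With the animal-number range as a covariate, the SD differences of Wnt10a (adjusted p = 0.0254) and Axin1 (lower, 0.0264) were called and that of Tcf7l1 was not (0.0651). A filter at a mean of 5 also lost Tcf7l1 (0.0526). Axin2 in the average missed the threshold with median scaling (0.0501) and without trend (0.0516). Quantile normalisation called Fzd4 (0.0496), Wnt9a (0.0492) and Dkk3 (0.0447) in the average, and the lobe score Dkk3 (0.0462). The causes were not tested. The labels give no replicate numbers shared between groups. No paired analysis was possible because the mice carry animal numbers only. Members near or under 3 reads, such as Wnt3, are limited by depth.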
